A study of Triticum aestivum with 6 samples.

Results

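The genes described here are the 142 entries of a wheat root expression table whose identifiers begin with TRAES3BF, the prefix of a gene annotation made separately for chromosome 3B. They are 142 of the 2578 listed entries, 5.51% of the table, and they were taken by that prefix alone, in both directions of change. The study compared root transcripts of Triticum aestivum, hexaploid bread wheat, in the cultivar Chinese Spring, the line from which the reference genome was made, under a pair of treatments with 3 biological replicates each. In MSC, the molecular signals communication treatment, every pot held 15 bags of 0.25 µm filter membrane, each with 25 g of live Rhizophagus irregularis inoculum, a mycorrhizal fungus. The membrane lets dissolved molecules through and keeps spores, hyphae and roots apart. In NM, the non-mycorrhizal treatment, each of 15 such bags received 20 g of the inoculum after steam sterilisation, together with a filtrate of live inoculum, so the bags differed in the mass of inoculum as well as in the living fungus. In both treatments 15 plants shared a pot outdoors in steam-sterilised soil and quartz sand, and polyadenylated RNA from about 100 mg of root was sequenced.

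Arbuscular mycorrhizal fungi and plants exchange dissolved signals before they touch. Roots release strigolactones, which stimulate the fungus. The fungus releases chitin-derived molecules that root receptors with LysM domains detect. Bread wheat carries the subgenomes A, B and D, so most genes have a counterpart on each of the chromosomes that share a number, here 3A, 3B and 3D. Chromosome 3B is the largest wheat chromosome and the earliest to be assembled and annotated as a sequence of its own, from ordered scaffolds, before the other wheat chromosomes were available at that quality. Its genes therefore entered wheat gene sets of that period under identifiers that carry a scaffold and a gene number. In each of the 142 identifiers, 4 digits after the prefix were read as the scaffold and the next digits as the gene number, which always came in steps of 10. The scaffold digits run from 0013 to 2808 and were not taken as positions along the chromosome. No source used here documents this reading of the identifiers, and what is said below of scaffolds and neighbouring genes rests on it.

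The table gives 1 FPKM value for NM and 1 for MSC per gene (sequenced fragments per unit of transcript length and of mapped library), with no value per replicate. Single genes therefore have no standard error, replicate spread or p-value here, and depth is unknown. All listed entries differ by at least 2-fold between the treatments, so a gene of the 3B annotation that differed less is not in the table, and the number of genes annotated on 3B was not used here. The identifiers are not paired with gene names, and 0 of the 142 matched the available gene table of a later wheat assembly. For this reason no function is given to any member, no sequence is shown, and the labelled tissue could not be checked against root markers.

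Most members had the larger value in roots exposed to the fungal signals. In MSC, 114 of the 142 were higher (80.3%, against 79.8% of all listed entries) and 28 were lower (19.7%, against 20.2% of all listed entries). The shares of the members thus lie next to those of the table as a whole. In bulk root RNA, a lower value from fewer cells of a type and one from less RNA per cell cannot be told apart. The split also depends on how the groups are scaled. With both groups brought to equal upper quartiles of the listed entries, a log2 shift of 1.04, 42 members remained at least 2-fold higher and 28 at least 2-fold lower, 60.0% higher, beside 61.9% of all listed entries that were still 2-fold apart (849 higher, 522 lower). Because the table was chosen by fold, the shift can remove listed increases but not listed decreases. The shift itself was taken from the listed entries, 79.8% of them higher in MSC, so it does not measure a scaling difference between libraries.

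The higher members were mostly of low to moderate level. Their median was 1.52 FPKM under NM and 5.39 FPKM under MSC, beside 1.37 and 5.20 FPKM for the higher entries of the whole table. The 28 lower members were more abundant in the control, with a median of 16.2 FPKM under NM and 6.20 FPKM under MSC. For the lower entries of the whole table the medians were 5.71 and 2.06 FPKM. The lower members of the 3B annotation thus had a median NM level above that of the table's lower entries, a difference that was not tested.

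**Figure D1:**
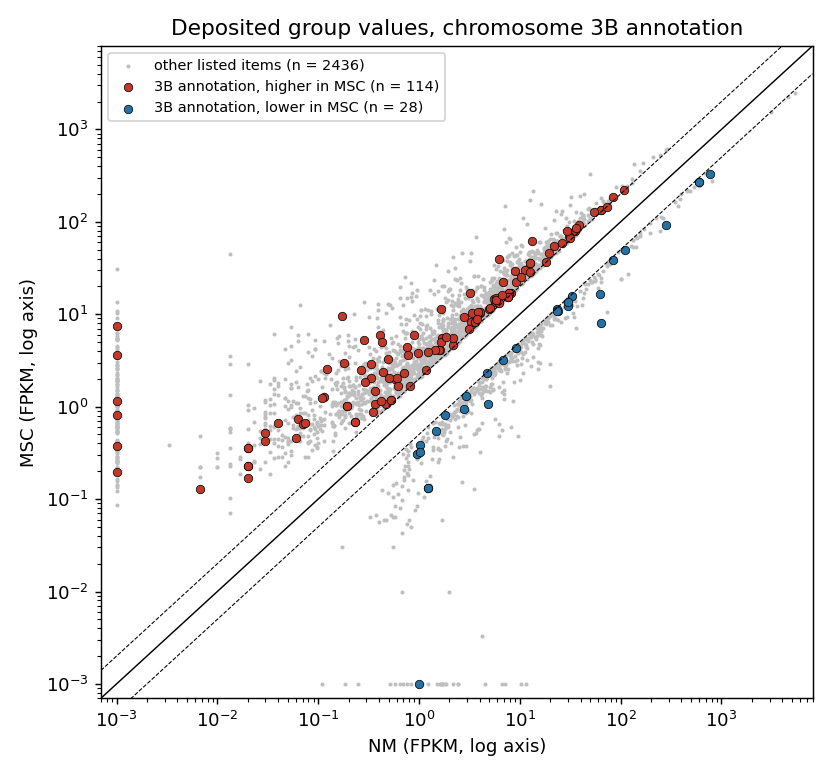
Deposited FPKM of each listed entry in NM (x axis) and MSC (y axis), both on log axes, with the 114 higher and 28 lower members of the 3B annotation coloured and the other 2436 entries in grey. The solid line marks equal values and the dashed lines a 2-fold difference, between which no entry lies, and points at 0.001 FPKM are entries at the lowest listed value.

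Of the higher members 58, and of the lower members 19, differed by less than 3-fold. Leaving out those at the lowest listed value of 0.001 FPKM, the median ratio was 2.82-fold for 108 higher members and 2.25-fold for 27 lower members. The corresponding medians of the whole table were 3.21-fold and 2.51-fold. Of these higher members 46.3% reached 3-fold, against 56.6% of the higher entries of the table, while 20.4% and 17.2% reached 8-fold. The 22 higher members at 8-fold or more include 9 with under 0.05 FPKM under NM, for which the deposited values do not fix a ratio. Of these lower members 29.6% reached 3-fold, against 32.6% of the lower entries of the table. At 4-fold or more there were 38 higher members (26.8% of the 142, against 28.5% of all listed entries) and 4 lower members (2.82% against 3.72%). Genes with the same pair of values count separately here, such as those of scaffolds 0490 and 0493 (lower) and 0608 and 0611 (higher). On the scale of log2((MSC + 1)/(NM + 1)), which adds a pseudocount of 1 FPKM and understates changes of low genes, the median difference was 1.07 for higher members (quartiles 0.84 and 1.28) and -1.01 for lower members (quartiles -1.16 and -0.86). For all listed entries these medians were 1.12 and -1.00. The table begins at 2-fold, and the members nearest that limit were gene 170 of scaffold 0421, at 72.6 FPKM under NM and 145 FPKM under MSC (2.00-fold), and, among the lower ones, gene 50 of scaffold 0189, at 4.72 and 2.34 FPKM (2.02-fold).

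**Figure D2:**
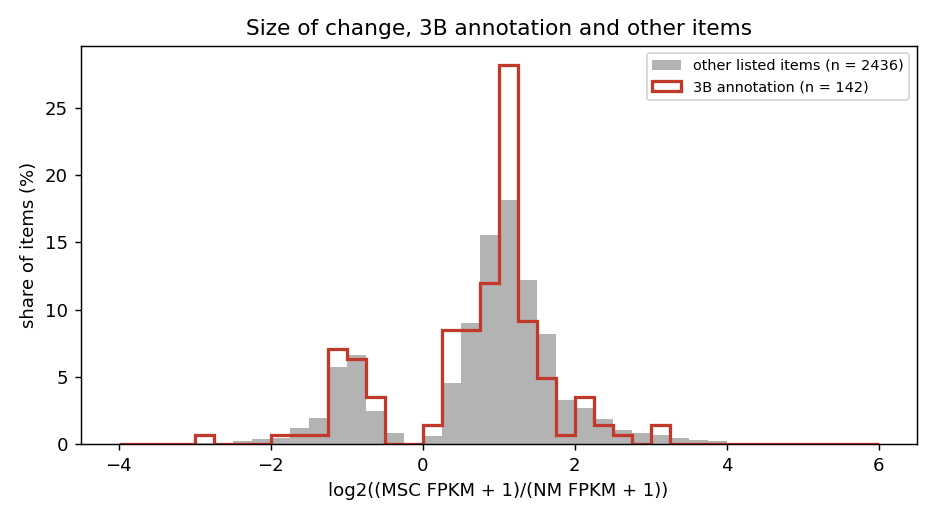
Distribution of log2((MSC FPKM + 1)/(NM FPKM + 1)) for the 142 members of the 3B annotation (red outline) and the other 2436 listed entries (grey), each as a percentage of its own total, in bins of equal width. The 2-fold limit of the table applies to the ratio without the pseudocount, so low genes can lie near 0 on this axis. The medians of the higher and lower members are 1.07 and -1.01.

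The largest increase among members with 5 FPKM or more in either treatment was that of TRAES3BF048900150CFD_g. It stood at 0.173 FPKM under NM and 9.47 FPKM under MSC, a ratio of 54.7-fold and a log2(FPKM + 1) difference of 3.16. Next stood TRAES3BF036000200CFD_g, listed at 0.001 FPKM under NM and at 7.40 FPKM under MSC. Both genes thus stood below 1 FPKM in the control and above 5 FPKM with the fungal signals, and each is the only member of its scaffold. Among the rest of the 10 largest increases, the genes of scaffolds 0457 and 0689 and gene 160 of scaffold 0243 likewise stood below 1 FPKM under NM and above 5 FPKM under MSC. The others were already above 1 FPKM in the control. Gene 20 of scaffold 1746 had 6.18 FPKM under NM and 40.0 FPKM under MSC. Gene 10 of scaffold 2777 had 13.2 FPKM under NM and 62.7 FPKM under MSC, the highest MSC level among these 10. The remaining 6 genes of the 10 (scaffolds 0457, 0689, 1103, 0744, 0243 and 0723) had between 0.283 and 9.02 FPKM under NM and between 5.24 and 29.5 FPKM under MSC. Among the 1327 entries of the table at this level, the member with the largest increase ranked 34 by log2(FPKM + 1) difference, so the strongest increases of the table lie outside the 3B annotation.

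Among members with 5 FPKM or more in either treatment, the largest decrease on the log2(FPKM + 1) scale was that of TRAES3BF280800020CFD_g, which had 63.3 FPKM under NM and 8.11 FPKM under MSC, a difference of -2.82 on that scale and 7.80-fold lower. It ranked 7 among decreases of the 1327 entries with at least 5 FPKM. TRAES3BF091400230CFD_g followed, with 62.2 FPKM under NM and 16.7 FPKM under MSC, 3.74-fold lower. Both were well expressed in the control and remained measurable with the fungal signals. The other 3 of the 5 largest decreases were gene 40 of scaffold 1146, gene 40 of scaffold 0324 and gene 130 of scaffold 0498, with ratios between 2.35- and 3.04-fold.

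The members with the highest NM levels were lower with the fungal signals. Gene 40 of scaffold 0324, the member with the highest level, had 770 FPKM under NM and 328 FPKM under MSC. Gene 50 of scaffold 0502 and gene 40 of scaffold 0503 carried the same values, 605 FPKM under NM and 269 FPKM under MSC. Gene 40 of scaffold 1146 had 279 FPKM under NM and 91.8 FPKM under MSC. These 4 genes made up 81.2% of the summed NM level of the lower members, and 3 values made up 76.0% when the shared value was counted once. Gene 10 of scaffold 1684 came next under NM, with 112 FPKM, and had 50.1 FPKM under MSC. All 5 of the most abundant members in NM were therefore lower in MSC, a ranking that favours genes with the larger value in NM.

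Ranked by MSC instead, the top 5 members were the genes of scaffolds 0324, 0502 and 0503 followed by a pair of higher ones. Gene 130 of scaffold 0193 had 109 FPKM under NM and 219 FPKM under MSC. Gene 110 of scaffold 0074 had 83.9 FPKM under NM and 184 FPKM under MSC. There were 11 members that reached 100 FPKM in either treatment (7.75%, against 4.15% of all listed entries). They comprised 6 higher and 5 lower genes, 54.5% higher beside 62.6% among the 107 such entries of the whole table. With shared values counted once there were 6 higher and 4 lower. Members at 10 to 100 FPKM (39 higher, 9 lower) and at 1 to 10 FPKM (50 higher, 13 lower) were 81.3% and 79.4% higher, beside 81.6% and 79.2% in the whole table. Below 1 FPKM in both treatments stood 20 members (14.1%, against 13.5% of all listed entries), 19 of them higher, 95.0% beside 82.8% in the whole table. The 19 include pairs with shared values, on scaffolds 0608 and 0611, 0645 and 0646, and 1171 and 1179. Fewer distinct values thus stand behind this share. In sum, the higher members went from 994 FPKM under NM to 2405 FPKM under MSC, and the lower members from 2784 to 1162 FPKM. With shared values counted once, the higher sum went from 965 to 2334 FPKM and the lower sum from 2178 to 893 FPKM.

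A small set of members was listed at the lowest value, 0.001 FPKM, in 1 treatment. In NM there were 6 (4.23%, against 5.00% of all listed entries), and in MSC there was 1 (0.704% against 1.09%). Besides the gene of scaffold 0360 given above, gene 160 of scaffold 0262 reached 3.63 FPKM under MSC and gene 70 of scaffold 0383 reached 1.14 FPKM. The other 3, on scaffolds 0249, 0455 and 0474, had 0.817, 0.373 and 0.197 FPKM under MSC. The gene listed at 0.001 FPKM under MSC was gene 10 of scaffold 0518, which had 1.00 FPKM under NM. No fold is given for these 7, since the value does not separate an absent transcript from one too weak to be listed. A further 9 members had under 0.05 FPKM under NM and were higher in MSC, where the deposited values, with rounding of up to 0.005 FPKM, do not fix a ratio. The lowest was gene 40 of scaffold 0301, at 0.00667 FPKM under NM and 0.13 FPKM under MSC.

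The members were spread thinly over the scaffolds, and those that shared one mostly had the same direction. The 142 genes lay on 118 scaffolds, of which 100 held 1 member, 13 held 2, 4 held 3 and 1 held 4. On 91 scaffolds the members were all higher, on 24 all lower, and on 3 they were mixed. Of the 18 scaffolds with 2 or more members, 14 held only higher genes, 1 only lower genes and 3 both. Their 42 members comprised 37 higher and 5 lower genes (88.1% higher), while the 100 members alone on a scaffold comprised 77 higher and 23 lower. Of the 31 pairs of members that share a scaffold, 26 had the same direction (83.9%), beside 68.1% of all 10011 pairs of members. Pairs on 1 scaffold share members with each other, and the difference was not tested.

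Scaffold 0277 held the longest series, with all 4 members higher and at low level. Gene 60 had 0.497 FPKM under NM and 3.24 FPKM under MSC. Gene 80 had 2.19 FPKM under NM and 5.60 FPKM under MSC. Gene 90 had 0.467 and 1.06 FPKM, and gene 230, farther along in number, had 0.363 and 1.08 FPKM. The ratios ran from 2.27- to 6.52-fold, so the members of this scaffold shared direction but not size. On scaffold 0368 the 3 members were all abundant and alike. Gene 20 had 35.1 FPKM under NM and 79.2 FPKM under MSC. Gene 40 had 64.6 FPKM under NM and 134 FPKM under MSC. Gene 100 had 30.8 FPKM under NM and 70.2 FPKM under MSC. Their ratios lay between 2.07- and 2.28-fold. The 3 members of scaffold 0944 were also all higher, yet genes 50 and 120 were 2.28- and 2.11-fold higher, and gene 90 between them went from 0.18 to 2.95 FPKM, 16.4-fold higher.

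Genes with consecutive numbers formed 5 pairs, and in all 5 both genes had the same direction. On scaffold 0051, gene 20 had 6.87 FPKM under NM and 22.1 FPKM under MSC, and gene 30 had 4.02 and 10.3 FPKM. On scaffold 0498, the only scaffold with several members that were all lower, gene 130 had 29.8 FPKM under NM and 12.3 FPKM under MSC, and gene 140 had 23.7 and 10.9 FPKM. These neighbours resembled each other in level as well as in direction. On scaffold 0512, gene 100 had 0.82 FPKM under NM and 1.69 FPKM under MSC, and gene 110, at a higher level, had 8.19 and 17.0 FPKM. The ratios of this pair were both near the limit of the table, 2.07- and 2.08-fold. On scaffold 1103, gene 120 had 3.35 FPKM under NM and 10.4 FPKM under MSC, and gene 130 had 1.65 and 11.3 FPKM. Genes 80 and 90 of scaffold 0277, given above, were the other pair. No run reached 3 consecutive numbers. The median difference in log2(FPKM + 1) change was 0.41 within these 5 pairs, 0.46 within the 31 pairs on 1 scaffold and 0.76 over all pairs of members. These medians are not like for like. All 5 neighbouring pairs had the same direction, against 68.1% of all pairs, and opposite directions widen the difference. Whether neighbours were more alike in size of change was not tested.

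**Figure D3:**
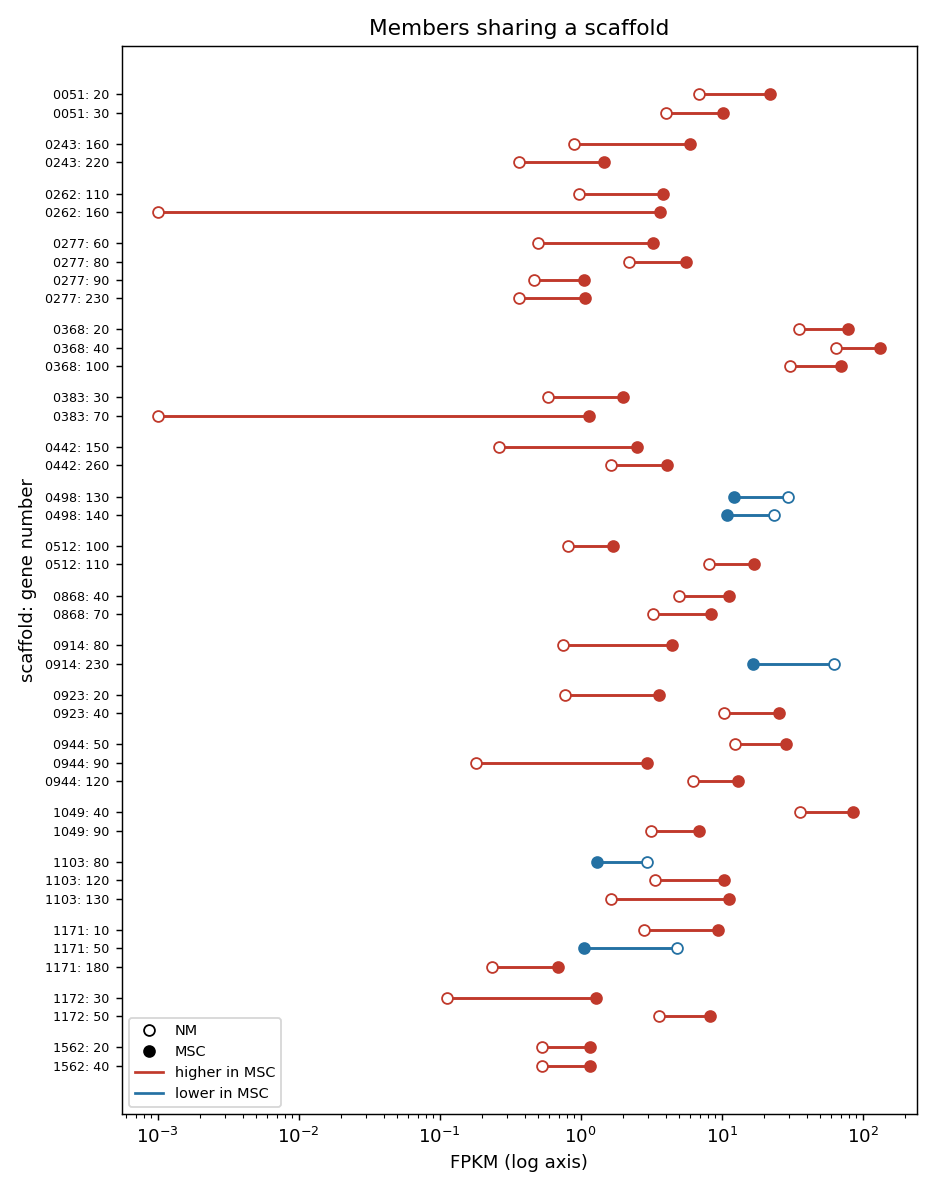
FPKM (log axis) in NM (open circles) and MSC (filled circles) for the 42 members that share a scaffold with another member, labelled by scaffold and gene number and joined by a line that is red where MSC is higher and blue where it is lower. Lines of both colours occur only on scaffolds 0914, 1103 and 1171, and circles at the left edge are at the lowest listed value of 0.001 FPKM.

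Scaffolds 0914, 1103 and 1171 held members of both directions. On scaffold 0914, gene 80 went from 0.753 to 4.41 FPKM, 5.85-fold higher, while gene 230, the second largest decrease given above, lay much farther along in number. On scaffold 1103, gene 80 was lower, with 2.94 FPKM under NM and 1.31 FPKM under MSC, beside the higher genes 120 and 130. On scaffold 1171, gene 10 had 2.80 FPKM under NM and 9.42 FPKM under MSC. Gene 50 of that scaffold had 4.81 FPKM under NM and 1.06 FPKM under MSC, 4.54-fold lower. Gene 180 had 0.233 FPKM under NM and 0.69 FPKM under MSC. Sharing a scaffold therefore did not fix the direction, and opposite directions made up 5 of the 31 pairs.

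Members often matched another identifier exactly in both values. This held for 21 of the 142 (14.8%, against 3.49% of all listed entries), and for 69 of the 2436 entries outside the 3B annotation (2.83%). Among the 21 chromosomes named in other identifiers the share ran from 0% to 28.0% with a median of 2.70%, and only the 25 other identifiers of 3B lay above the 3B annotation. Members that share a pair of values cannot be told apart in these data. They were kept as separate genes in the counts above, and the share of higher members was 80.3% with each pair of values counted once (106 higher, 26 lower).

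The shared values mostly tied genes on different scaffolds. There were 10 sets in which members equalled each other, each of 2 members, 8 higher and 2 lower. In 9 of these the members lay on different scaffolds, and in 5 of those the scaffold digits were at most 3 apart as numbers, which is no distance along the chromosome. Scaffolds 0502 and 0503, with the abundant lower genes given above, were such a pair, and so were scaffolds 0490 and 0493, whose genes had 1.22 FPKM under NM and 0.133 FPKM under MSC. That last pair, 9.15-fold lower, had the largest ratio among the lower members with a ratio. Gene 120 of scaffold 0896 and gene 40 of scaffold 0898 both had 7.78 FPKM under NM and 17.0 FPKM under MSC. Sets with scaffold digits farther apart included scaffolds 1046 and 1115, at 12.8 FPKM under NM and 35.5 FPKM under MSC, and scaffolds 0922 and 0972, at 7.64 and 15.4 FPKM. The set on a single scaffold was that of genes 20 and 40 of scaffold 1562, at 0.53 FPKM under NM and 1.17 FPKM under MSC. In 4 of the sets both values were at 7.64 FPKM or above. Agreement in every deposited digit was the rule by which all sets were found.

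In 3 sets a member shared its values with an entry outside the 3B annotation. The genes of scaffolds 0608 and 0611 equalled another identifier of chromosome 3B, at 0.02 FPKM under NM and 0.353 FPKM under MSC. Those of scaffolds 0645 and 0646 equalled an assembled locus without a chromosome, at 0.02 and 0.227 FPKM. Gene 100 of scaffold 0760 equalled an identifier of chromosome 1D, at 0.04 and 0.673 FPKM. All 3 sets had values with few digits above 0, where equal values by coincidence and equal values of copies cannot be told apart.

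**Figure D4:**
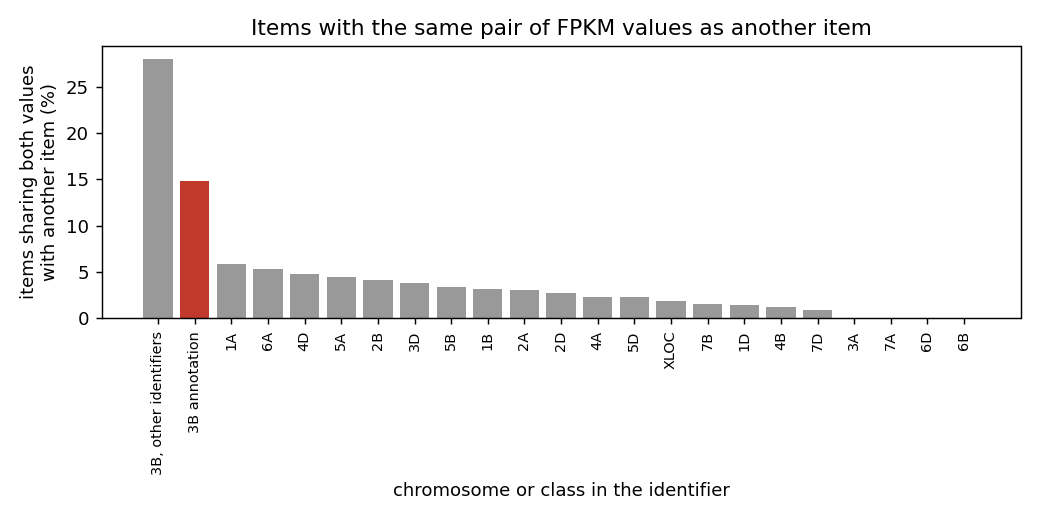
Percentage of listed entries whose NM and MSC values both equal those of another entry, by the chromosome or class named in the identifier (a single entry of another class is not drawn). The bar of the 3B annotation stands at 14.8% (21 of 142), that of the other 3B identifiers at 28.0% (7 of 25), and all other bars are below 6%.

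Beside the other entries of homoeologous group 3, the 3B annotation stood out in number and not in the share of higher genes. The 282 entries of this group comprised the 142 members, 25 entries that name 3B in the other style of identifier, 63 that name 3A and 52 that name 3D. Of the 25 other 3B entries 22 were higher (88.0%), of the 3A entries 49 (77.8%) and of the 3D entries 41 (78.8%), beside 80.3% of the members. The higher entries had a median of 5.39 FPKM under MSC among members, 6.47 FPKM among other 3B entries, 6.51 FPKM on 3A and 4.16 FPKM on 3D. The median NM level of lower entries was 16.2 FPKM among members, 13.6 FPKM in the 3 lower entries among the other 3B identifiers, 8.86 FPKM in the 14 lower entries of 3A and 3.30 FPKM in the 11 of 3D. The number of genes in each annotation was not used here, so the larger number of 3B entries is a count and not a rate, and no difference between these classes was tested.

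The place of 1 member in the table is uncertain. Entries follow the order of their identifiers, and 141 members stand together in that order. Gene 120 of scaffold 1690 stands apart from them, on row 634, with 5.09 FPKM under NM and 11.7 FPKM under MSC. An identifier of chromosome arm 1AS stands on row 133, where this gene would be, with 0.001 and 1.20 FPKM. Both pairs of values are higher in MSC, so the direction counted for this member is the same with either.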

How the data were processed

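Root RNA of 3 NM and 3 MSC libraries was sequenced, per the labels' protocols, to an average read length of 150 bp. The authors deposited 1 table with an identifier and 1 FPKM value per treatment. TopHat2, Cufflinks and RSEM 1.3.0 are named, without roles, per the submitters' processing notes. Build, annotation, test and thresholds were not given in the sources used here. All 277 member values above 0.001 are whole multiples of 1/300 FPKM within 0.01 of a step, as means of 3 values with 2 decimals would be. No reads can be recovered, and depth and precision are unknown.

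Members, lists and alternatives were chosen with earlier results of these data known. Scaffold and gene number were read from identifier text. Direction, ratios and log2((MSC + 1)/(NM + 1)) were computed from the deposited FPKM, with no test, because each group has 1 value. The submitters' table was selected by fold, so counts describe listed entries. Full identifiers are printed for 2 higher and 2 lower genes, those that differed most among members reaching 5 FPKM. Further genes were named as runs of consecutive numbers, mixed or largest scaffolds, the 5 most abundant per group, the lowest listed value, the 10 largest increases and 5 largest decreases, or the smallest ratios. Scaffolds 0368 and 0944, gene 40 of scaffold 0301, scaffold 1690 and the genes with shared values fall outside that rule. They were chosen after their values were seen. The counting of directions and pairs was tested on simulated data. Alternatives were filters on level and fold, other pseudocounts, rescaling, shared values or runs counted once, and the row out of order left out. Scripts ran under Python 3.11.15 (pandas 2.3.3, NumPy 2.4.6, matplotlib 3.10.9, SciPy 1.17.1).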

Additional observations from a re-analysis of the deposited data

How the results depend on the processing

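More members were higher than lower under every setting run. The share of higher members, 80.3%, was 90.5% at 4-fold or more (38 higher, 4 lower; 88.5% over all listed entries) and 60.0% after rescaling to equal upper quartiles (61.9% over all listed entries; 42 members higher and 28 lower, the second number fixed because the table was chosen by fold). The rescaled counts keep entries at the lowest listed value, while those at 4-fold or more leave them out. Both count genes with shared values separately. Filters keep fewer genes by construction, with 60 higher members at 1 FPKM or more in both groups, and 58 higher and 16 lower at 5 FPKM or more in the higher group. The median log2 difference of higher members, 1.07, was 1.19 at 5 FPKM or more, 0.56 after rescaling, and 1.44 or 0.65 with a pseudocount of 0.1 or 5 FPKM. That of lower members, -1.01, was -1.92 after rescaling, and -1.19 or -0.74 with these pseudocounts. With a limit of 0.1 FPKM in place of the lowest listed value, 19 members were near 0 in NM. Of 64 alternative values, 48 stayed within the interval of the main one (a 95% binomial interval of a share or median) or within the allowed range of a count. The intervals treat genes as independent, also those with shared values, so the 48 are no measure of certainty. For neighbouring pairs the main value was 5 of 5, and its interval was so wide that the 5 alternatives could hardly leave it. The row with values from its expected place, and shared values counted once for levels, for pairs on 1 scaffold and for group 3, were chosen after seeing the data. No paired analysis was possible because each treatment has a single deposited value, and fits without 1 replicate were not run for the same reason. The precision of low values is not known without depth.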
